A study of Mus musculus with 48 samples.

Results

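The albumin gene family of the mouse consists here of 4 genes, Alb, Afp, Afm and Gc, which were taken by name from a table of 37583 genes measured in 8 liver RNA libraries. All 4 lie on chromosome 5. In build mm9, Alb spans 90889915 to 90905629, Afp spans 90919740 to 90937933 and Afm spans 90947958 to 90982569, all on the plus strand and in that order. Gc spans 89846549 to 89886790 on the minus strand, 1003 kb from Alb. Binding of the transcription factors C/EBPα and HNF4α was read from 20 peak lists in a window of 50 kb on each side of Gc and of the Alb to Afm cluster.

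The proteins of this family arose by gene duplication and are secreted by hepatocytes into plasma, where they carry small molecules. Albumin (Alb) is the main carrier protein of adult plasma and alpha-fetoprotein (Afp) its fetal counterpart, whose gene is shut down in mouse liver after birth. Afamin (Afm) binds vitamin E and Wnt proteins, and the group-specific component (Gc) is the vitamin D binding protein. C/EBPα and HNF4α are DNA-binding proteins that act at the promoters and enhancers of many hepatocyte genes, and regulatory sequence near Alb and Afp was among the first studied in liver.

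The regulatory sequence just upstream of each start is shown because peaks near the gene starts are described below. It holds the 250 bases before the RefSeq gene start in build GRCm38.p6, read 5′ to 3′ along the gene, from chr5:90460620-90460869 on the plus strand for Alb, chr5:90490464-90490713 on the plus strand for Afp, chr5:90518699-90518948 on the plus strand for Afm and chr5:89457899-89458148 on the minus strand for Gc. Capitals mark the motif GTTAATNAT, where N is any base.
Alb: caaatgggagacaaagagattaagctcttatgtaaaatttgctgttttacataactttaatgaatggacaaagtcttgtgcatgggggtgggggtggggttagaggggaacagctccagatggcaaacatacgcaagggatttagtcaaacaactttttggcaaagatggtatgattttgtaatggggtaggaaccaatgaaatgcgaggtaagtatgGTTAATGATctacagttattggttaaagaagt
Afp: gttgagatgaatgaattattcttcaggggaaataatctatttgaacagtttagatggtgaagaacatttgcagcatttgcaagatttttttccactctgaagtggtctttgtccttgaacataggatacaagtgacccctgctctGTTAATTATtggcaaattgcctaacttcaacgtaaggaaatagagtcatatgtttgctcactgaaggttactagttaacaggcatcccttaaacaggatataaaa
Afm: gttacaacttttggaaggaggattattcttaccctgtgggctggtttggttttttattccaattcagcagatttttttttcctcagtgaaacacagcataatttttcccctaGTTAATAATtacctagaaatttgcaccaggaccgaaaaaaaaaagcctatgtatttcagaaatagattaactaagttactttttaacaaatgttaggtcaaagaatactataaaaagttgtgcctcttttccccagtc
Gc: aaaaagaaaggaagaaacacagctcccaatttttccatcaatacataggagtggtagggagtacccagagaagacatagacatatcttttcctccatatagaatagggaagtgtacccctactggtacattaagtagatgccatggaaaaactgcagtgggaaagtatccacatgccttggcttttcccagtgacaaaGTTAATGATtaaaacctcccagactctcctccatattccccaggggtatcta
Counted from 0 at the gene start, the motif began at -32 in Alb, -105 in Afp, -138 in Afm and -52 in Gc, each time along the gene. Searched on both strands in windows of 300 bases (250 before and 50 after the start), it was in 4 of 4 members and in 263 of 32851 mouse promoters in all (0.801%). This motif was chosen after these sequences had been read. TTGNNNAA, a C/EBP type motif, was in 3 of 4 members (not in Gc) and in 36.7% of all promoters. CAAAGTC, an HNF4 type motif, was in Alb, and in 4.44% of all promoters. TATAAA was in Afp and Afm, and in 13.6% of all promoters. A match says only that these letters stand there. The RefSeq coordinates cannot be set beside those of the peaks, which are in mm9.

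All samples were livers of F1 mice (C57Bl6/CBA), male by the labels. RNA came from 3 C/EBPα knockouts (KO; genotype C/EBPa lox/lox / Alfp-Cre), 2 HNF4α knockouts (HNF4a lox/lox / Alfp-Cre) and 3 wild types (WT), for which the labels name no Cre transgene. Alfp-Cre expresses Cre recombinase in the liver lineage from regulatory sequence of albumin and alpha-fetoprotein, the genes described here. The labels give all RNA samples an age of 60 days after birth, whereas the design text of the series places them at E18.5 (embryonic day 18.5), so the age is uncertain. Growth notes list a chow and a high-fat diet without assigning them. Peaks came from WT livers at E15.5, E18.5 and P0.5, P14 and P60 (days after birth), with 2 lists per factor and stage. The pair of HNF4α lists for P0.5 held the same peaks and entered as 1 list. The headers mark the RNA replicates BR and a number, without saying what BR stands for. Whether they are separate animals is thus not stated. P-values set differences against the spread between these samples.

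Deposited totals were 13.4 M to 16.4 M normalized reads in C/EBPα KO, 20.0 M to 26.0 M in HNF4α KO and 20.4 M to 22.5 M in WT libraries. Cebpa was at 322, 419 and 998 normalized reads in C/EBPα KO, against 9999, 9594 and 5511 in WT (log2 change -3.98 ± 0.44, limma adjusted p = 0.000413). Hnf4a was at 1238 and 2444 in HNF4α KO, against 9098, 4948 and 6718 in WT (-1.95 ± 0.45, adjusted p = 0.033). The 8 hepatocyte markers, none at 0 in any library, together took 0.427% to 1.32% of reads in C/EBPα KO, 0.865% to 1.43% in HNF4α KO and 2.77% to 3.26% in WT. Of these, Ttr and Apoa2 overlapped WT in both knockouts, and the others were below all WT libraries in both. Ttr had 16167, 22206 and 24266 reads in C/EBPα KO, against 13254, 28174 and 23100 in WT. Erythroid markers (7 of 8 measured) took 5.63% to 8.44% in C/EBPα KO, 11.9% to 14.5% in HNF4α KO and 3.15% to 9.49% in WT. HNF4α KO replicate 1 held 2.35% of reads on 7 skeletal muscle markers, where every other library held at most 0.00731%. The 6 bile duct markers took 0.0518% to 0.0598% in C/EBPα KO, 0.00744% to 0.0108% in HNF4α KO and 0.00495% to 0.0113% in WT. Both HNF4α KO libraries were also above all WT libraries in the sum of 5 stellate cell markers (0.285% and 0.122%, against 0.0338% to 0.0606% in WT). Of these, Des had 31081 reads in HNF4α KO replicate 1, the library with the muscle markers, and 612 in replicate 2. The same held for the sum of 6 macrophage markers (0.0765% and 0.115%, against 0.0533% to 0.058% in WT). Single markers such as Dcn and Emr1 overlapped WT. C/EBPα KO libraries had 0.0377% to 0.0882% on the stellate and 0.0259% to 0.11% on the macrophage markers. The part of these shares in the results below was not tested. In whole liver, fewer hepatocytes and less RNA per hepatocyte cannot be told apart.

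All 4 genes had lower mean levels in both knockouts than in WT, at 18.5% (Alb) to 76.2% (Afm) of the WT mean in C/EBPα KO and 26.4% (Alb) to 43.6% (Afp) in HNF4α KO. By limma, 0 of 4 passed the test across all genes in either knockout, and 1 in C/EBPα KO and 2 in HNF4α KO had an unadjusted p under 0.05. The share of all genes under that unadjusted limit was not counted, so these counts have no baseline. All 4 passed the filter of at least 10 normalized reads in at least 2 libraries. Of the 17771 genes tested, 3.75% were called in C/EBPα KO against WT and 4.7% in HNF4α KO against WT, at an adjusted p under 0.05. Values are read numbers, not divided by transcript length, so levels are compared between libraries and not between genes. Levels relative to each gene's mean over the 8 libraries were set against GC content across the genes tested. Spearman correlations were 0.358 and 0.331 in HNF4α KO, -0.323, -0.0979 and 0.275 in C/EBPα KO, and -0.11, -0.00913 and -0.485 in WT. The members have 39.0% (Alb) to 41.4% (Afm) GC, and the part of GC content in these results was not tested.

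Alb had 670004, 127285 and 559934 normalized reads in C/EBPα KO, 430946 and 863323 in HNF4α KO, and 2758855, 1491169 and 3098691 in WT. Each knockout library was below each WT library, and C/EBPα KO replicate 2 was lowest. The log2 change of Alb was -2.69 ± 1.51 in C/EBPα KO against WT (SE; 95% interval -6.02 to 0.64; limma adjusted p = 0.485) and -1.94 ± 1.69 in HNF4α KO against WT (-5.66 to 1.78; adjusted p = 0.543). The mean level was 18.5% of that in WT in C/EBPα KO and 26.4% in HNF4α KO. The variance trend of the fit raised the error of Alb. Without the trend the change in C/EBPα KO was -2.69 ± 0.68 (adjusted p = 0.089).

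Afp, the fetal member, had 381833, 97621 and 349858 normalized reads in C/EBPα KO, 227430 and 305323 in HNF4α KO, and 625821, 499143 and 706964 in WT. The groups did not overlap here either, and C/EBPα KO replicate 2 was again lowest. The log2 change of Afp was -1.36 ± 1.09 in C/EBPα KO against WT (adjusted p = 0.665) and -1.20 ± 1.22 in HNF4α KO against WT (adjusted p = 0.606). Afp took 0.608% to 2.84% of reads in C/EBPα KO, 0.875% to 1.53% in HNF4α KO and 2.23% to 3.47% in WT libraries. The age of these livers is uncertain (60 days by the labels, E18.5 by the design text), so these values cannot be read as a level of adult liver.

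Gc had 9615, 2291 and 17337 normalized reads in C/EBPα KO, 6125 and 15726 in HNF4α KO, and 38298, 28443 and 48705 in WT. All knockout values were below all WT values. The log2 change of Gc was -2.37 ± 0.69 in C/EBPα KO against WT (95% interval -3.89 to -0.85; adjusted p = 0.103) and -1.94 ± 0.77 in HNF4α KO against WT (-3.64 to -0.23; adjusted p = 0.189). Gc passed the test in C/EBPα KO when libraries were weighted by quality (adjusted p = 0.00635) and without C/EBPα KO replicate 3 (adjusted p = 0.0279). In HNF4α KO it passed with weights (adjusted p = 0.0143) and with only HNF4α KO and WT in the fit (adjusted p = 0.0448). It passed in no other setting run. Weights called 2711 (C/EBPα KO) and 4322 (HNF4α KO) of 17771 genes, against 666 and 836 in the main fit. With only HNF4α KO and WT 1475 of 16999 genes passed, and without C/EBPα KO replicate 3 804 of 17511 passed in C/EBPα KO.

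Afm had 1768, 644 and 1476 normalized reads in C/EBPα KO, 383 and 747 in HNF4α KO, and 1406, 1644 and 2053 in WT. C/EBPα KO and WT overlapped, with C/EBPα KO replicate 2 alone far below WT, whereas both HNF4α KO libraries were below all WT libraries. The log2 change of Afm was -0.50 ± 0.42 in C/EBPα KO against WT (95% interval -1.43 to 0.43; adjusted p = 0.689) and -1.65 ± 0.47 in HNF4α KO against WT (-2.69 to -0.61; adjusted p = 0.075). In HNF4α KO it passed with library weights (adjusted p = 0.0106), with only those 2 groups in the fit (adjusted p = 0.025) and without C/EBPα KO replicate 2 (adjusted p = 0.0265). It passed in no other setting of this comparison. In the same order, these settings called 4322 of 17771, 1475 of 16999 and 1064 of 17595 genes, against 836 of 17771 in the main fit. Under scaling to library totals, which moved the median of all genes by 0.51, the C/EBPα KO value of Afm was 0.01, or -0.52 relative to that median.

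**Figure D1:**
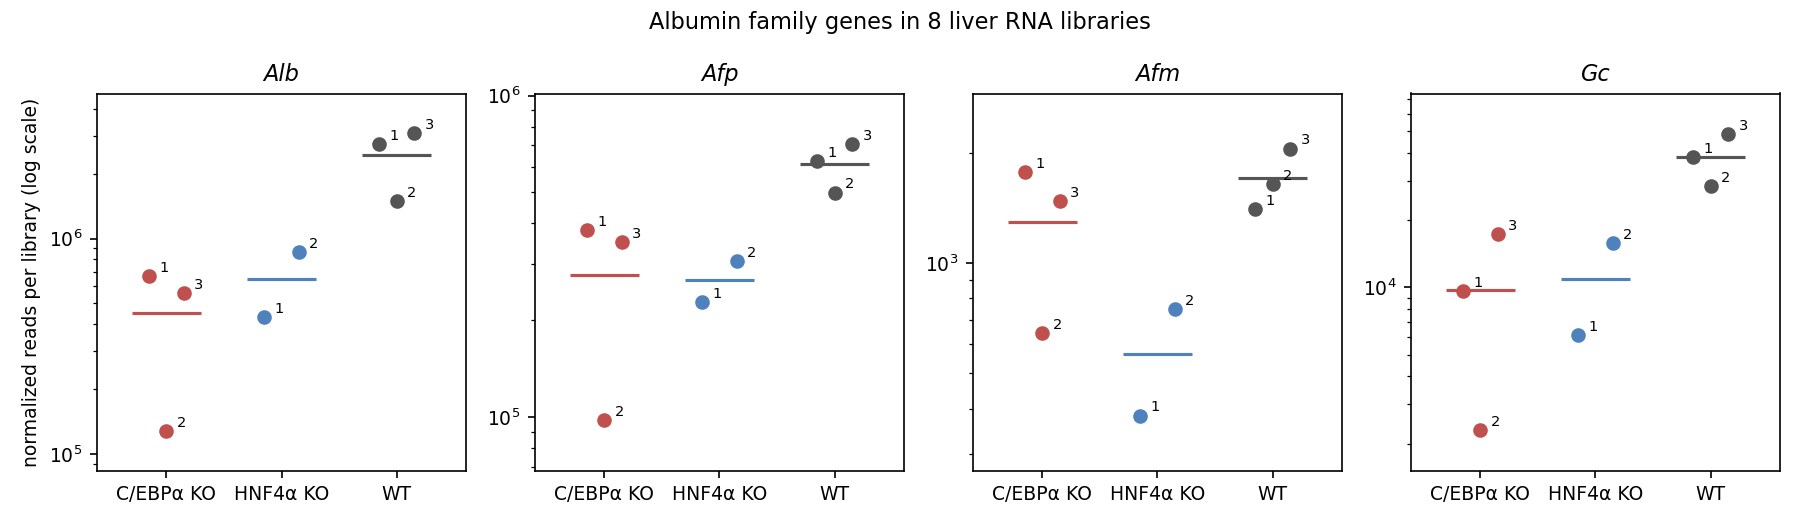
Normalized reads of Alb, Afp, Afm and Gc in each liver RNA library on a log axis that differs between panels, with C/EBPα KO, HNF4α KO and WT from left to right; bars mark group means and digits the replicate. WT libraries are above all knockout libraries for Alb, Afp and Gc, and C/EBPα KO replicate 2 is the lowest C/EBPα KO library of every gene.

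Members without overlap and lower numbered 3 of 4 in C/EBPα KO, where this held for 10.3% of all genes tested, and 4 of 4 in HNF4α KO, where it held for 22.4%. The median log2 change of the 4 genes was -1.87 in C/EBPα KO and -1.79 in HNF4α KO, beside 0.03 and 0.02 over all genes tested. Both comparisons share the WT libraries. Without C/EBPα KO replicate 2 the changes in C/EBPα KO were -1.93 for Alb, -0.73 for Afp, -0.06 for Afm and -1.54 for Gc. Without HNF4α KO replicate 1, which held the muscle markers, the changes in HNF4α KO were -1.44 for Alb, -0.99 for Afp, -1.17 for Afm and -1.26 for Gc, with 1 HNF4α KO library left, assumed to vary like the other groups.

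C/EBPα KO against HNF4α KO was tested in the same fit, with 3.48% of all genes called and 0 of 4 members. At an unadjusted p under 0.05 it was 1 of 4, with the share of all genes not counted. The log2 differences were -0.75 ± 1.69 for Alb (95% interval -4.47 to 2.97), -0.16 ± 1.22 for Afp (-2.84 to 2.52), 1.15 ± 0.47 for Afm (0.11 to 2.19) and -0.44 ± 0.77 for Gc (-2.14 to 1.27). Values of both knockouts overlapped for all 4 genes, where 34.4% of all genes tested did not overlap, and limma adjusted p ranged from 0.224 (Afm) to 0.961 (Afp). Afm passed only with library weights (adjusted p = 0.0341), where 2557 of 17771 genes passed. The intervals of Alb, Afp and Gc reached past 1 log2 unit in both directions.

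Reads relative to Alb in the same library do not depend on the scaling between libraries. Afp had 57.0, 76.7 and 62.5 reads per 100 Alb reads in C/EBPα KO, 52.8 and 35.4 in HNF4α KO, and 22.7, 33.5 and 22.8 in WT. Every knockout ratio was above every WT ratio, and every C/EBPα KO ratio was above both HNF4α KO ratios. The ratio was 2.51-fold higher in C/EBPα KO than in WT (exact permutation test, 2-sided, p = 0.1, the smallest that 3 against 3 libraries allow) and 1.67-fold higher in HNF4α KO than in WT (exact p = 0.2, smallest possible 0.1). Adjusted over the 12 ratio tests these were p = 0.2 and p = 0.343 (exact permutation tests), so neither passed. Alb itself was lower in C/EBPα KO (-2.69) and HNF4α KO (-1.94), where the median log2 change of all genes was 0.03 and 0.02. A gene with an unchanged level would thus also have a higher ratio to Alb. The share of all genes whose ratio to Alb was above WT was not counted.

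Afm had 264, 506 and 264 reads per 100000 Alb reads in C/EBPα KO, 88.9 and 86.5 in HNF4α KO, and 51.0, 110.2 and 66.25 in WT. C/EBPα KO libraries were above all others, and HNF4α KO lay within the WT range. The Afm to Alb ratio was 4.56-fold higher in C/EBPα KO than in WT (exact permutation p = 0.1, adjusted p = 0.2) and 1.22-fold higher in HNF4α KO than in WT (exact permutation p = 0.6, adjusted p = 0.8). For this ratio too Alb was lower in both knockouts, and the share of all genes was not counted. Gc had 1.435, 1.8 and 3.1 reads per 100 Alb reads in C/EBPα KO, 1.42 and 1.82 in HNF4α KO, and 1.39, 1.91 and 1.57 in WT. These ranges overlapped, and C/EBPα KO replicate 3 alone was above WT. Together the 4 genes took 7.91%, 1.42% and 5.65% of reads in C/EBPα KO, 2.56% and 5.92% in HNF4α KO, and 15.25%, 9.02% and 18.9% in WT. No knockout library reached the lowest WT share (exact permutation p = 0.1 for each knockout against WT, adjusted p = 0.2).

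**Figure D2:**
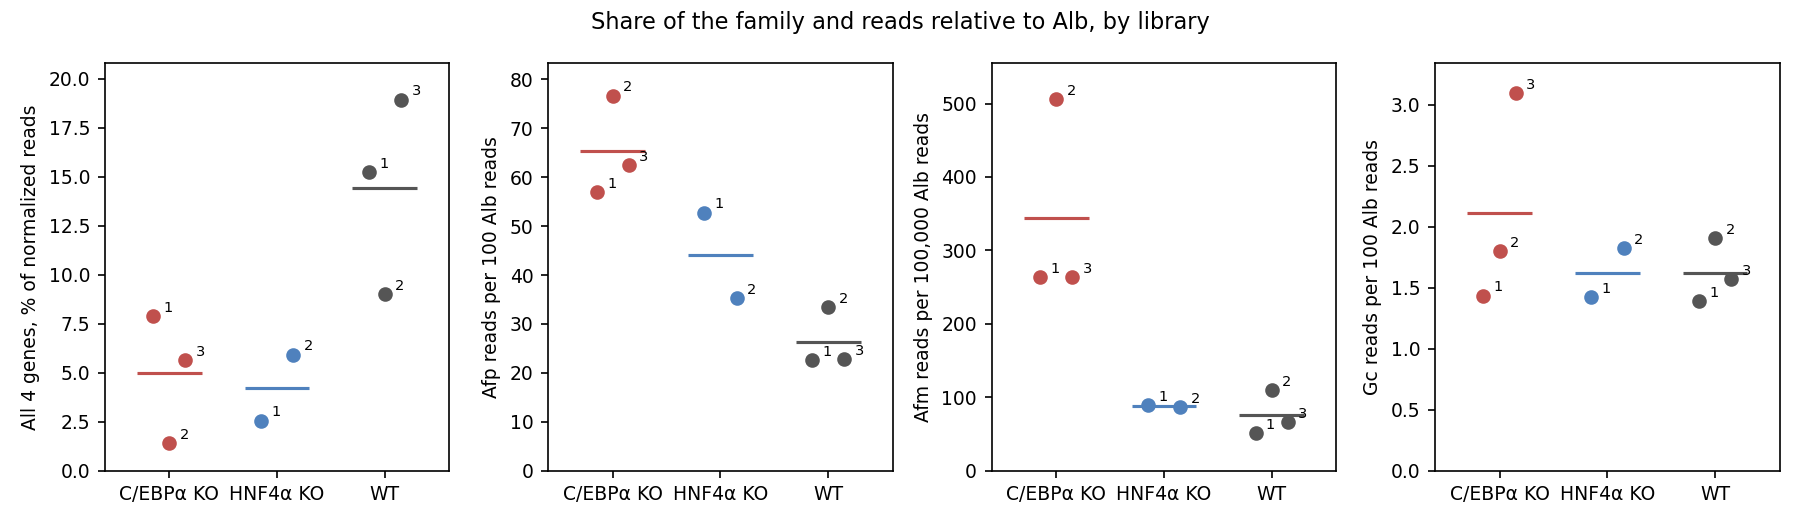
Share of normalized reads taken by the 4 genes (percent) and reads of Afp, Afm and Gc relative to Alb, per library, with C/EBPα KO, HNF4α KO and WT from left to right; bars mark group means and digits the replicate. Afp per 100 Alb reads is 57.0 to 76.7 in C/EBPα KO, 35.4 to 52.8 in HNF4α KO and 22.7 to 33.5 in WT.

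Across the 8 libraries, log2 levels of Alb and Afp (r = 0.968), Alb and Gc (r = 0.968) and Afp and Gc (r = 0.965) had high Pearson correlations, whereas Afm had r of 0.647 with Alb, 0.744 with Afp and 0.707 with Gc. These are descriptions: the libraries share their groups and their scaling. Of the other 17770 genes tested, Mtss1, an actin regulator, was most like Alb (r = 0.982) and Gc (r = 0.988). Itih1, which encodes a heavy chain of a plasma protease inhibitor made in liver, was second for both Afp (r = 0.984) and Gc (r = 0.986). The gene most like Afm was Hnrnph1, an RNA-binding splicing regulator (r = 0.996). Hnrnph1 had 4491, 1484 and 3649 reads in C/EBPα KO, 751 and 1691 in HNF4α KO, and 3572, 3626 and 4886 in WT. As for Afm, its C/EBPα KO values overlapped WT and its HNF4α KO values did not. Hnrnph1 was picked by its correlation over these same libraries, so this likeness is no separate support.

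Of all genes tested, 3.75% passed in C/EBPα KO against WT and 4.7% in HNF4α KO against WT. Among 13 genes within 500 kb of a member with a mean of at least 10, 1 passed in a knockout. This was 5830473C10Rik, named Albfm1 in RefSeq, a family member downstream of Afm at 90990244 to 91007024 (mm9). It had 12, 14 and 1 normalized reads in C/EBPα KO, 3 and 0 in HNF4α KO, and 77, 22 and 161 in WT, so that knockouts were below WT throughout. It fell by 5.05 ± 1.17 on the log2 scale in HNF4α KO against WT (adjusted p = 0.0334), at levels where the added 1 matters. The call was lost without either HNF4α KO library or without WT replicate 1 or 3 (adjusted p 0.0886 to 0.177), without a filter (0.0696) and without a variance trend (0.0505). In C/EBPα KO its change was -3.18 ± 1.04 (adjusted p = 0.153). Rassf6, the next gene, had -1.79 ± 0.52 in HNF4α KO (adjusted p = 0.0767). Of the nearest genes upstream of Alb among the 13, Gm9958 had -0.996 ± 0.785 in C/EBPα KO and -1.04 ± 0.88 in HNF4α KO at 4 to 27 reads, and Ankrd17, beyond it, had -0.00 ± 0.36 in C/EBPα KO and -0.41 ± 0.40 in HNF4α KO, none passing.

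Of 13 factors known to act on these genes, 12 passed the filter, and Zhx2, a repressor of Afp after birth, was listed at 0 in every library. In C/EBPα KO against WT, where 3.75% of all genes tested passed, 1 of 12 passed. This was Foxa1, a pioneer factor at Alb regulatory sequence, which had 10, 2 and 22 reads in C/EBPα KO, 279 and 194 in HNF4α KO, and 124, 97 and 82 in WT. It fell by 3.46 ± 0.69 in C/EBPα KO against WT (adjusted p = 0.0177) and differed by -4.68 ± 0.78 on the log2 scale between C/EBPα KO and HNF4α KO (adjusted p = 0.00937). In HNF4α KO against WT, where 4.7% of all genes tested passed, 0 of 12 passed by limma. Of the 12, 3 had an unadjusted p under 0.05, a limit at which all genes were not counted. Zbtb20, also a repressor of Afp, had 0.71 ± 0.42 in C/EBPα KO and 0.11 ± 0.47 in HNF4α KO, neither passing.

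The family was set beside 17 other genes of plasma carrier and transport proteins, all of which passed the filter. In C/EBPα KO against WT, 5 fell, 1 rose and 11 did not pass, where 2.86% of all genes fell and 0.883% rose. Their median log2 change was -1.77, beside 0.03 over all genes. The 5 were Fetub (fetuin-B, -6.67 ± 1.09, adjusted p = 0.00531), Azgp1 (zinc-alpha-2-glycoprotein, -4.42 ± 0.94, adjusted p = 0.0241), Hp (haptoglobin, -3.77 ± 0.42, adjusted p = 0.000476), Serpina7 (thyroxine-binding globulin, -3.70 ± 0.56, adjusted p = 0.00319) and Cp (ceruloplasmin, -3.23 ± 0.47, adjusted p = 0.0024). Serpina6, the gene of the corticosteroid carrier of plasma, had 54960, 32605 and 21688 reads in C/EBPα KO, 4231 and 7276 in HNF4α KO, and 173, 166 and 412 in WT. It rose by 7.21 ± 0.47 in C/EBPα KO (adjusted p = 2.48e-05) and by 4.60 ± 0.52 in HNF4α KO (adjusted p = 0.000739). Levels were thus highest in C/EBPα KO and lowest in WT, with no overlap. In HNF4α KO the other 16 did not pass, with a median of -0.89, where 3.17% of all genes fell and 1.54% rose. Serpina7 had 42, 22 and 130 reads in C/EBPα KO, 2761 and 4316 in HNF4α KO, and 563, 557 and 898 in WT, so that both knockouts lay on opposite sides of WT. Between C/EBPα KO and HNF4α KO, where 1.87% of all genes were called lower and 1.61% higher, Serpina7 differed by -6.09 ± 0.62 on the log2 scale (adjusted p = 0.00108). Hp differed by -3.60 ± 0.47 and Cp by -2.84 ± 0.52, both passing, and Serpina6 by 2.61 ± 0.52 (adjusted p = 0.0214).

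**Figure D3:**
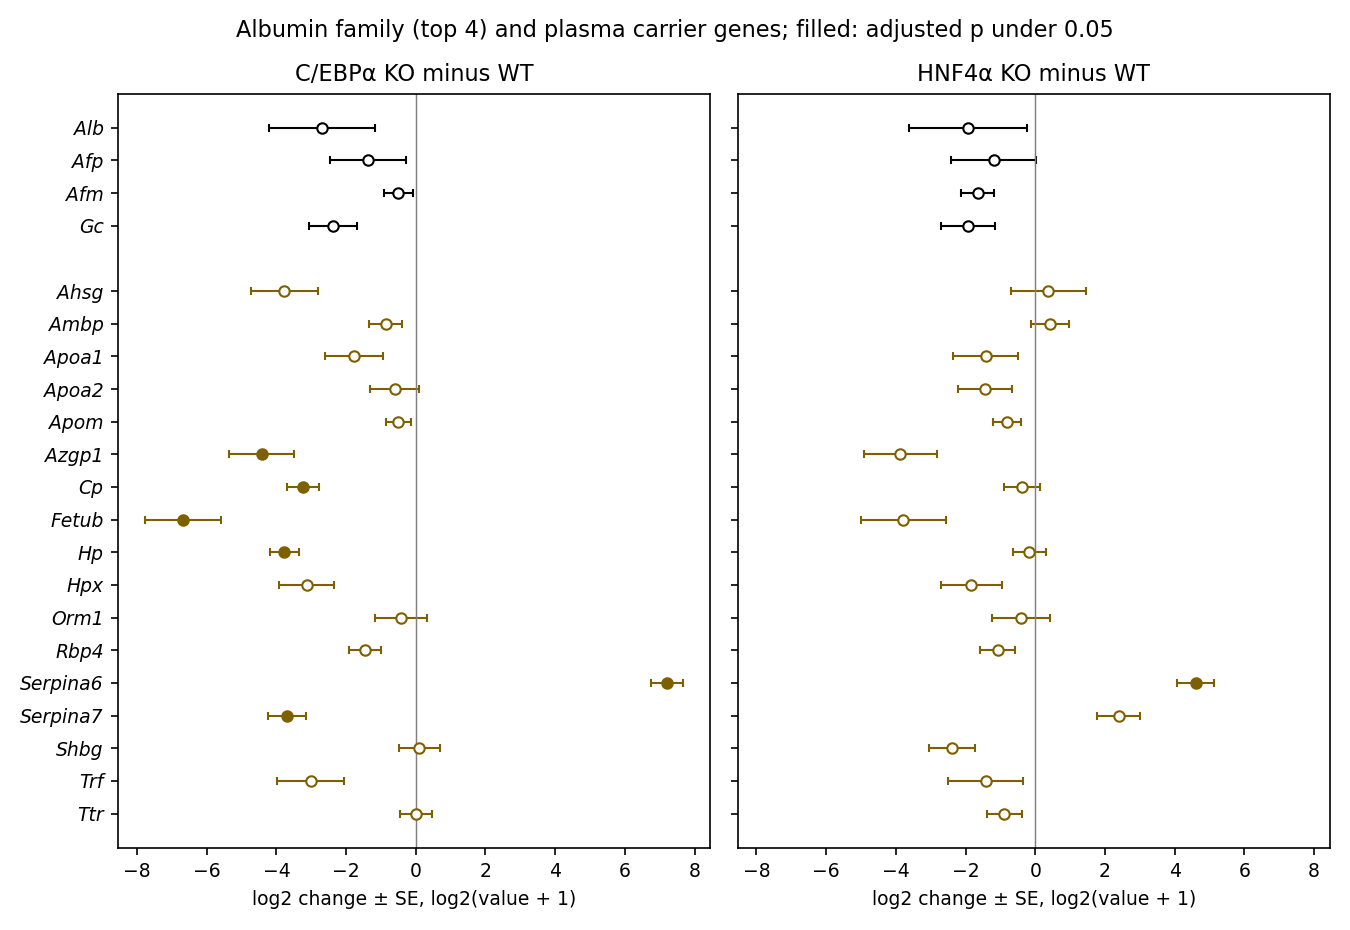
Log2 change ± SE of the 4 albumin family genes (top) and of 17 plasma carrier genes in C/EBPα KO minus WT (left) and HNF4α KO minus WT (right), on the log2(value + 1) scale; filled points passed at an adjusted p under 0.05. The family genes are all open, with Afm nearest 0 in C/EBPα KO, and Serpina6 is filled at 7.21 and 4.60.

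Peaks of both factors were dense in the cluster. Overlapping peaks of a stage's lists, merged over factors and stages, gave 50 sites in the 192.7 kb window of Alb, Afp and Afm and 18 in the 140.2 kb window of Gc. A site is called bound at a stage where peaks of both lists overlap on it (of the 1 list for HNF4α at P0.5). C/EBPα bound 47 of the 50 sites at some stage and HNF4α 26, and 23 were bound by both. In the Gc window C/EBPα bound 16 of 18, HNF4α 12, and both 10. At all 5 stages, both factors bound 5 sites of the cluster and 1 near Gc.

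The number of bound regions differed strongly between stages, and its part in these counts was not tested. The bound regions of the whole genome numbered 10419 at E15.5, 65021 at E18.5, 94619 at P0.5, 34737 at P14 and 44217 at P60 for C/EBPα, and 35764, 18359, 21262, 23800 and 36322 for HNF4α. In the cluster window, C/EBPα had 11, 39, 38, 24 and 30 bound regions in the same order of stages, and HNF4α 22, 10, 13, 17 and 18. In the Gc window C/EBPα had 2, 13, 11, 7 and 11, and HNF4α 9, 5, 3, 8 and 9. The fewest C/EBPα regions were thus at E15.5 in both windows, the stage with the smallest C/EBPα lists. HNF4α was lowest at E18.5 in the cluster, where its lists of 53278 and 41199 peaks shared the fewest regions of its 5 stages, and at P0.5 near Gc. Within 50 kb of the Alb start lay 9, 33, 29, 18 and 19 C/EBPα regions, against medians of 1, 5, 7, 2 and 3 over 16299 gene starts with a WT mean of at least 10. For HNF4α these were 13, 9, 9, 11 and 10, against medians of 3, 1, 2, 2 and 2. Gc had more C/EBPα regions than 66.2% (P0.5) to 96.8% (P60) of gene starts, and more HNF4α regions than 65.1% (P0.5) to 98.0% (E18.5).

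**Figure D4:**
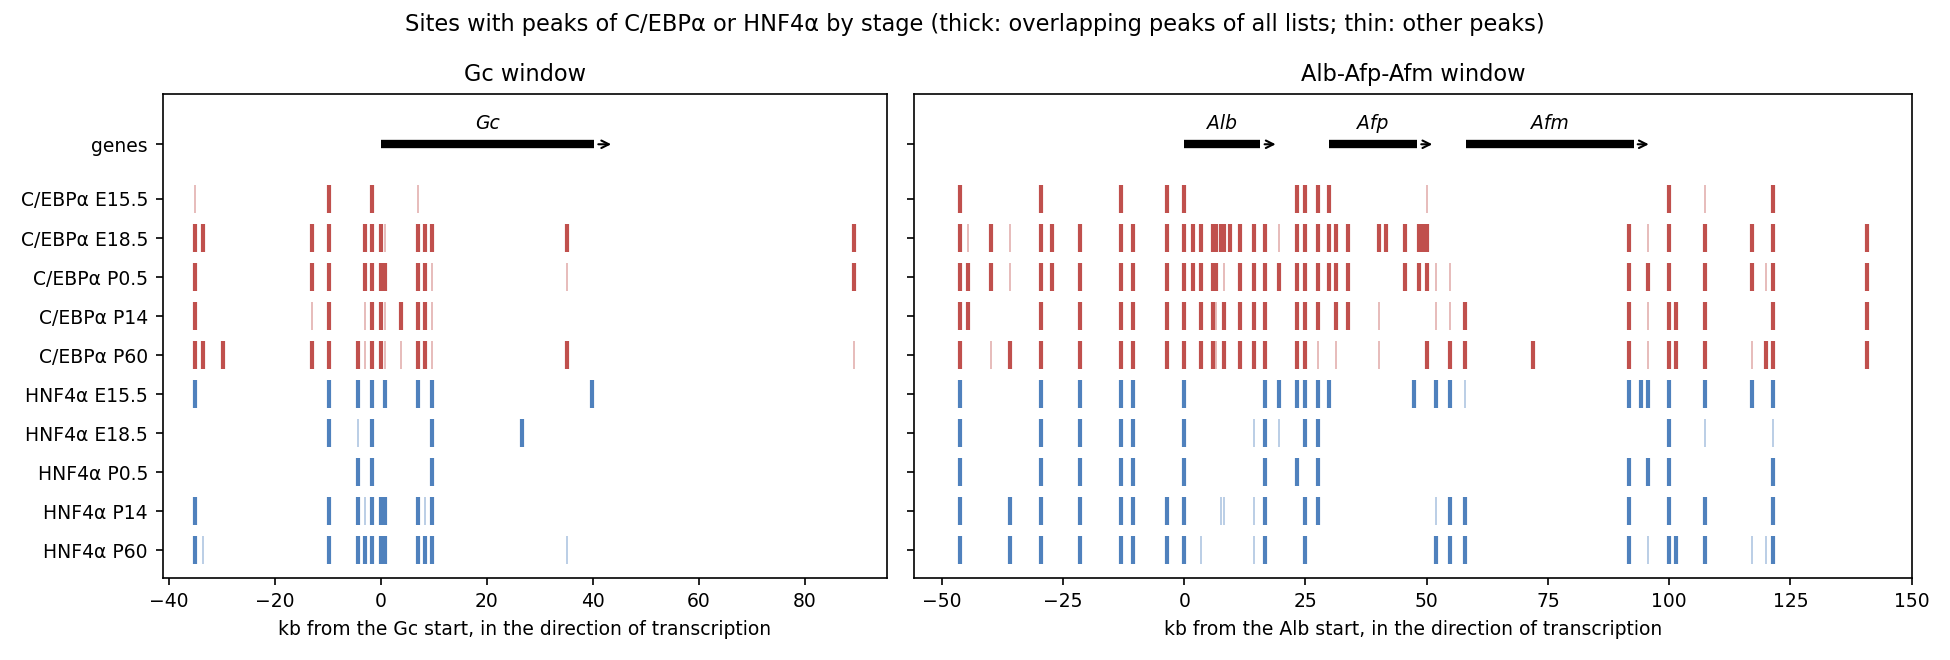
Sites with peaks of C/EBPα (red) and HNF4α (blue) at 5 stages, by distance in kb from the Gc start (left) and the Alb start (right) in the direction of transcription; thick ticks are sites where peaks of all lists of the stage overlap, thin ticks other peaks, and bars at the top the genes. The Alb start is bound in all 10 rows, the interior of Alb carries C/EBPα ticks from E18.5 on, and the Afm start is bound by both factors at P14 and P60.

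The gene starts had separate stage patterns. Within 1 kb of the start, C/EBPα bound 2, 3, 3, 4 and 3 of the 4 members from E15.5 to P60, where it bound 7.34%, 34.8%, 49.7%, 28.3% and 26.1% of the 16299 gene starts. HNF4α bound 3, 1, 2, 3 and 3 members, where it bound 23.4%, 6.38%, 24.0%, 22.9% and 31.3% of gene starts. These counts include flanking peaks: Afp counts for C/EBPα at P14 through a peak that begins 945 bases after its start, and Gc for HNF4α at E15.5 and P0.5 through peaks at least 554 bases from its start. Within 250 bp of the start, each gene had the pattern given next. The patterns were set from the members themselves, so the shares of other starts with the same pattern are descriptions.

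The Alb start was bound by both factors at all 5 stages, on a site of 982 bases centred 146 bases before the start. C/EBPα bound 4.29% of the 16299 starts at all stages, and HNF4α 3.11%. Alb was the only member whose start was bound by HNF4α at E18.5.

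The Afp start was bound by C/EBPα at E15.5, E18.5 and P0.5, with peaks that covered the start in 6 of 6 lists, and had no peak in the 4 lists of P14 and P60. Of the 741 starts bound by C/EBPα at all of those 3 early stages, 14 were unbound at both later stages (1.89%), and these 14 are 0.0859% of the 16299 starts. HNF4α bound the Afp start at E15.5, in both lists, and at no later stage. Of 2618 starts bound by HNF4α at E15.5, 289 lacked it at all 4 later stages (11.0%; 1.77% of all).

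The Afm start had the opposite order. C/EBPα bound it at P14 and P60 and in none of the 6 lists of E15.5, E18.5 and P0.5. This held for 50 of the 2332 starts bound at P14 and P60 (2.14%), or 0.307% of all starts. HNF4α also bound the Afm start at P14 and P60, with a peak in 1 of 2 lists at E15.5 and none at E18.5 and P0.5. A start bound at P14 and P60 and not at E18.5 and P0.5 was found for HNF4α at 548 of 2620 starts (20.9%; 3.36% of all).

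The Gc start was bound by C/EBPα at the 4 stages from E18.5 on and not at E15.5, where the lists are small, as were 1392 of 2092 starts bound at those 4 stages (66.5%; 8.54% of all). HNF4α bound it at P14 and P60 and at none of the 3 earlier stages, as at 373 of 2620 starts bound at P14 and P60 (14.2%; 2.29% of all). A site 1.61 kb before the Gc start was bound by both factors at all 5 stages.

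Of the 5 cluster sites bound by both factors at all 5 stages, 3 lay upstream of Alb, at -46.3 kb, -29.5 kb and -13.0 kb from its start. The sites at -10.7 kb and -21.5 kb were bound by HNF4α at all 5 stages and by C/EBPα at 4, from E18.5 on. An enhancer in this upstream region is well studied in mouse liver. At -3.46 kb C/EBPα was present at all 5 stages and HNF4α at P14 and P60. Of the 10 sites upstream of Alb, C/EBPα bound 4 at E15.5 and 7 at P60, and HNF4α 5 at E15.5 and 7 at P60.

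Between Alb and Afp lay 5 sites, 3 of them in the stretch where the enhancers of mouse Afp are known. At -6.57 kb from the Afp start C/EBPα bound at all 5 stages and HNF4α at E15.5 and P0.5. At -4.86 kb C/EBPα bound at all 5 and HNF4α at all but P0.5. At -2.28 kb both factors bound from E15.5 to P14, and at P60 C/EBPα was left in 1 of 2 lists and HNF4α in none. At P60 the Afp start had no peak, whereas 2 of these 3 upstream sites were bound by C/EBPα at P60 and 1 by HNF4α. Between Alb and Afp in all, HNF4α bound 5 sites at E15.5 and 2 at P60, and C/EBPα 3 at each.

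Downstream of Afm, a site of 1168 bases that spans the start of 5830473C10Rik, 42.0 kb from the Afm start, was bound by both factors at all 5 stages. Near Gc, a site at -9.9 kb was bound by C/EBPα at all 5 stages and by HNF4α at 4, and a site 9.6 kb inside the gene by HNF4α at all 5 and by C/EBPα at E18.5. Of the 50 sites in the cluster, 24 were bound by C/EBPα and never by HNF4α, and 3 by HNF4α alone.

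The share of binding held in common depended on the stage. In the cluster window, 90.9%, 25.6%, 36.8%, 62.5% and 60.0% of C/EBPα regions from E15.5 to P60 overlapped an HNF4α region, against 55.0%, 9.11%, 17.9%, 40.9% and 48.1% over the whole genome. Of HNF4α regions there, 45.5%, 100.0%, 100.0%, 88.2% and 94.4% overlapped a C/EBPα region, against 15.8%, 31.9%, 70.3%, 57.9% and 55.8% genome-wide. The cluster was above the genome at each stage by both shares, on 10 to 39 regions per factor and stage. In the Gc window the shares of C/EBPα regions were 50.0%, 30.8%, 9.09%, 85.7% and 63.6%, on 2 to 13 regions, and those at E15.5 and P0.5 were below the genome.

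The interior of Alb differed from the other gene bodies. From 1 kb after the start to the gene's end, C/EBPα regions covered 0%, 48.6%, 22.4%, 43.3% and 33.4% of Alb from E15.5 to P60, on 9 sites in all, of which 9 were bound at E18.5 and 5 at P60. HNF4α regions covered 0% of the Alb body except 1.33% at P14, and none of the 9 sites was called bound by HNF4α. Some had HNF4α peaks all the same, as the site at 14.4 kb, with peaks of both P60 lists that did not overlap on it. C/EBPα covered 0%, 16.4%, 9.21%, 8.2% and 0% of the Afp body, where 5 sites were bound at E18.5 and 0 at P60. Coverage by C/EBPα was at most 2.39% for Afm and 6.04% for Gc. The 20 genes of at least 2 kb with the most WT reads, Alb and Afp among them, had median C/EBPα coverage of 0%, 19.1%, 17.6%, 11.3% and 7.25%. Alb was above these medians from E18.5 on. Its 43.3% at P14 equalled the highest of the 20, and the highest was 60.2% at E18.5, 70.1% at P0.5 and 38.8% at P60. Input samples were not used here, and the part of transcript abundance in the Alb coverage was not tested.

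**Figure D5:**
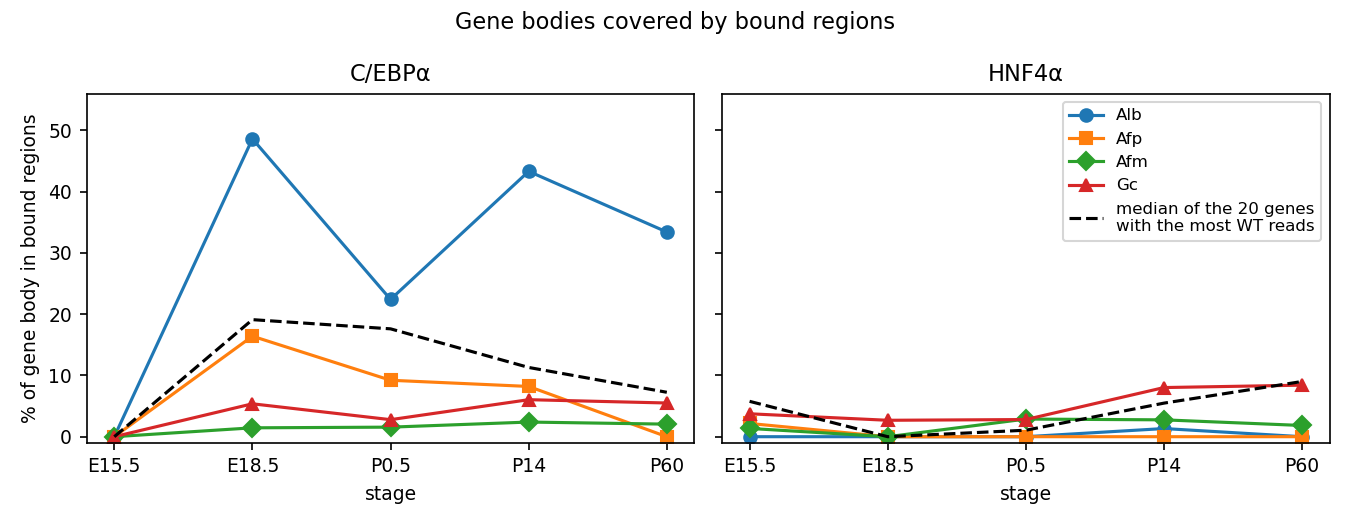
Percent of each gene body, from 1 kb after the start to the end, covered by bound regions of C/EBPα (left) and HNF4α (right) at 5 stages; the dashed line is the median of the 20 genes with the most WT reads. For C/EBPα, Alb is at 0% at E15.5, 48.6% at E18.5 and 33.4% at P60, and Afp returns to 0% at P60.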

How the data were processed

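RNA was measured in 8 liver libraries and protein binding in 20 peak lists. The submitters' processing notes list the tools MACS 1.4, DESeq, BWA, TopHat2, Cufflinks, bedtools, FastQC and bcl2fastq and the build mm9, without their roles. The deposited RNA values are a score per gene: reads scaled by the authors with DESeq, per the file headers, and rounded to whole numbers, so no count test was used. The table also holds GC content as a deposited fraction per gene. The authors' peak lists give positions per replicate, with a score of 0 throughout, so peak heights are not known.

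Values were analysed as log2(value + 1) with limma 3.58.1 in R 4.3.3, all 8 libraries in 1 fit with a variance trend, on the 17771 genes with at least 10 in at least 2 libraries. Tests were 2-sided, with Benjamini-Hochberg adjustment over all genes at 0.05, for 3 contrasts. The fit was tested on simulated data. Ratios were tested by exact permutation. Peaks counted as bound where those of both lists overlapped by at least 1 bp, and gene starts within 1000 bp. Promoters came from RefSeq (GRCm38.p6) for 4 of 4 members. Intervals are 95% confidence intervals of the log2 difference between groups, from the error estimated by the fit. Depth of the peak lists is unknown. The 10 RNA polymerase II and 10 input samples were not used here.

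The rule allowed naming the members, the targeted genes, 13 neighbours within 500 kb, 13 regulators, carrier genes that passed and, per member, the 5 most correlated genes. The neighbours, regulators and correlated genes named are a part of these, chosen after their values were seen. The values of 1 regulator are not reported here. The members and lists were chosen with earlier results of these data known. Alternatives covered the pseudocount, filter, scaling, variance model, replicate block, left-out libraries, overlap rule and windows.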

Additional observations from a re-analysis of the deposited data

How the results depend on the processing

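Of the alternatives run, none turned the 4 genes higher than WT in a knockout except that Afm in C/EBPα KO was 0.011 under scaling to library totals. That scaling moved the median of all genes by 0.51 in C/EBPα KO minus WT, -0.07 in HNF4α KO minus WT and 0.58 in C/EBPα KO minus HNF4α KO, and by 0.14, -0.05 and 0.18 without the 100 most abundant genes. The share of calls that were lower became 40.6% (76.4% under the deposited scaling), 70.3% (67.3%) and 21.1% (53.6%), and 69.9%, 69.4% and 43.8% without those genes. The cause was not tested for any result below.

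Library weights gave called values of -2.24 for Gc in C/EBPα KO, of -1.46 for Afm and -1.96 for Gc in HNF4α KO, and of 1.46 for Afm in C/EBPα KO minus HNF4α KO, with 2711, 4322 and 2557 genes called and 11, 6 and 7 carrier genes. With only C/EBPα KO and HNF4α KO in the fit 343 genes were called. With HNF4α KO and WT alone 1475 genes and 5 carrier genes were called, and Afm (-1.65) and Gc (-1.94) passed. In HNF4α KO, 2 carrier genes passed with a pseudocount of 10 and with a filter at 100. Without a filter, C/EBPα KO minus HNF4α KO gave 403 calls.

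The replicate block gave 486 calls and 2 carrier genes in HNF4α KO minus WT and 288 calls in C/EBPα KO minus HNF4α KO. It changed no call of the 4 genes, and 5830473C10Rik lost its call in HNF4α KO (-5.19, adjusted p = 0.0651). Deviations of same-numbered libraries from their group means correlated at -0.231 to 0.19. With 2 or 3 libraries per group these values cannot decide whether the numbers pair them.

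Leaving out libraries, calls ranged from 216 to 804 (2 to 9 carrier genes) in C/EBPα KO, from 238 to 1372 (1 to 4) in HNF4α KO, and from 88 to 855 (1 to 6) between knockouts. Gc in C/EBPα KO ranged from -3.00 to -1.54 and Afm in HNF4α KO from -2.13 to -1.17. Between knockouts, Alb ranged from -1.25 to 0.0060, Afp from -0.51 to 0.47 and Gc from -1.12 to 0.40, with positive values without C/EBPα KO replicate 2 for these 3 and without HNF4α KO replicate 2 for Afp and Gc. There, Afp was also above 0 under library totals (0.42), without the 100 most abundant genes (0.023) and with weights (0.20), and Gc under library totals (0.14). The log2 share of reads between knockouts ranged from -0.57 to 0.78. The log2 Gc to Alb ratio ranged from -0.0012 to 0.55 in C/EBPα KO minus WT, from -0.18 to 0.18 in HNF4α KO minus WT (-1.04e-05 on a linear scale) and from -0.0017 to 0.55 between knockouts.

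With a peak in either list, C/EBPα at P60 had 62 bound regions in both windows and HNF4α at E18.5 had 33. From 1 list alone these were 44 to 64 and 23 to 25. HNF4α bound 3 starts at E18.5 within 5 kb, and 1 at P0.5 within 250 bp. With 3 and 2 knockout libraries the intervals are wide, and a gene that did not pass may still differ by an amount within its interval.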
